A study of Mus musculus with 6 samples.

Results

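The 4 arrays of MDX mice, whichever water the animals drank, were compared with the 2 arrays of C57BL/10 mice, and genes were sought on which all 4 MDX arrays lay on one side of both C57BL/10 arrays. The comparison used all 6 arrays of the series, chosen by the titles of the samples, and 20870 genes and transcripts. C57BL/10 mice, the wild-type strain, drank tap water (B10_tap, n = 2). MDX mice drank tap water (MDX_tap, n = 2) or JJ101 (a bioceramic water, in the words of the labels; MDX_JJ101, n = 2). The animals had been on their water for 10 months, and their RNA is labelled as coming from gastrocnemius, a muscle of the calf. No B10 array on JJ101 was analysed here, so the mean of the MDX arrays holds a treatment that the control lacks. The labels number the replicates without saying whether they were separate mice. The p-values therefore measure the spread between these arrays, which may be technical.

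Dystrophin, the product of Dmd, ties the actin skeleton of a muscle fibre to a membrane complex of dystroglycan, sarcoglycans and syntrophins, which binds laminin outside the cell. MDX mice carry a nonsense mutation in Dmd, and their muscle fibres and heart cells are easily torn by contraction. Cycles of injury bring in macrophages and mast cells and, with age, lay down collagen in the diaphragm and the heart. Utrophin, a relative of dystrophin, can take part of its place.

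Levels are log2 signals relative to the 75th percentile of the array, and a difference is the mean of both MDX groups minus B10_tap on that scale. The share of 59305 spots well above background was 51.4 to 51.6% on the B10_tap arrays, 48.1 to 49.6% on the MDX_tap arrays and 42.5 to 43.8% on the MDX_JJ101 arrays. All 6 arrays lay on 1 slide, B10_tap in columns 1 and 2 and both MDX groups in columns 3 and 4, so genotype cannot be told apart from the column of the slide. The MDX_JJ101 arrays lay in row 2 and the others in row 1, so slide row and JJ101 cannot be told apart either.

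The labelled muscle was checked against its markers. Of 12 heart regulators and hormones, 11 were well above background on all 6 arrays, and so were 11 of 12 heart contractile genes. Myh6, the alpha myosin heavy chain of the heart, had a level of 10.45 and 10.39 on the B10_tap arrays, 10.17 and 10.31 on the MDX_tap arrays and 10.28 and 10.32 on the MDX_JJ101 arrays, so it was high on every array, with the MDX arrays slightly below B10_tap. Among 20 regulators of limb muscle, all arrays detected 7 above background, some arrays 6, and no array the remaining 7. The last included Myod1, Myf5 and Myog, which direct skeletal muscle formation. Myh4, the myosin heavy chain of the fastest skeletal fibres, stood at 2.62 and 2.28 in B10_tap and 0.91 and 3.53 in MDX_tap, but at -5.52 and -5.42 in MDX_JJ101, where neither array was well above background. The data thus go against the label, and the RNA is called muscle RNA below. The part of differences in dissected tissue in the results was not tested.

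**Figure D1:**
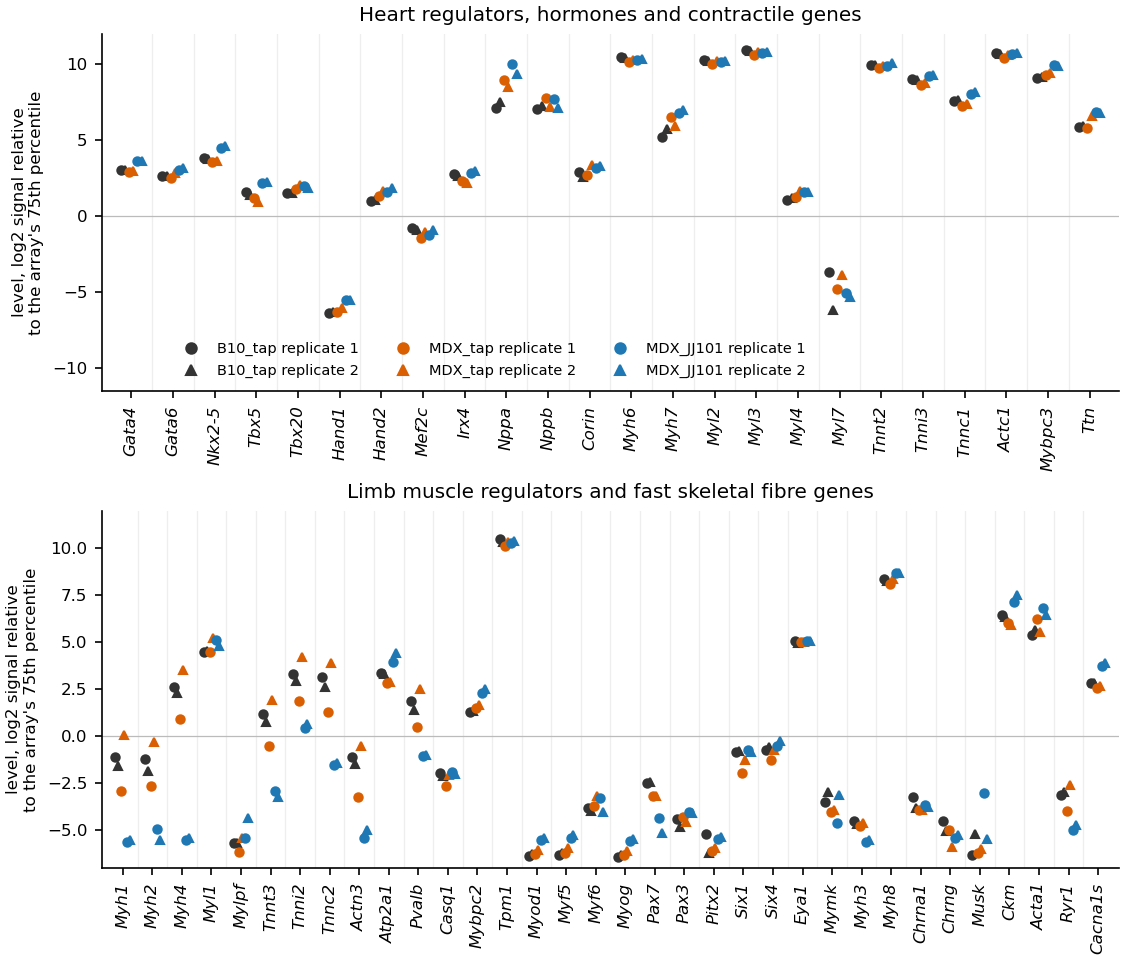
Levels of heart genes (top) and of limb muscle and fast fibre genes (bottom) on each of the 6 arrays, as log2 signal relative to the array's 75th percentile; each point is 1 array, coloured by group and shaped by replicate. All 6 points of Myh6 lie above 10, and the 2 MDX_JJ101 points of Myh4 lie near -5.5 while the other 4 arrays lie between 0.91 and 3.53.

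More transcripts lay below B10_tap than above it, but among genes with a symbol the balance did not lean that way. On 5874 of 20870 genes (28.1%) the 4 MDX arrays lay apart from both B10_tap arrays, above them on 2171 (10.4%) and below them on 3703 (17.7%). In simulated data, 13.3% of the unchanged genes also lay apart in either direction, so part of the 28.1% would arise without a difference. By limma's moderated test with Benjamini-Hochberg adjustment, 1686 genes passed the threshold of 0.05 (8.08%), 471 higher (2.26%) and 1215 lower (5.82%) in MDX. Among the 13953 genes with a symbol 399 rose and 409 fell, whereas among the 6917 without one 72 rose and 806 fell. The arrays lay apart above on 1823 and below on 1591 genes with a symbol, against 348 and 2112 without one. With genes split by level into 3 equal sets, 12.6% of the lowest set passed downwards and 1.70% upwards, against 0.949% and 2.90% of the highest set. For 245 of the genes that passed, 1 genotype was well above background on no array. The median difference over all genes was -0.0028.

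The count rested on a few arrays. It was 0 by limma without B10_tap replicate 1 (3265 genes at an unadjusted p under 0.05) and 2 without B10_tap replicate 2, against 6616 at an unadjusted p under 0.05 with all arrays. Each of the 70 calls among the named genes was lost when either B10_tap array was left out. None of them turned its direction under any alternative run. The count was 339 without MDX_tap replicate 1, 657 without MDX_tap replicate 2 and 1 when the 2 MDX groups were fitted as a single genotype. With the slide row as a block, which leaves MDX_tap against B10_tap, it was 5.

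The balance of directions moved with the scaling. Of the genes that passed, 27.9% were higher in MDX as reported, 83.3% with each array centred on its median and 7.0% when scaled to the spike-in controls. These scalings shifted the median of all genes to 0.28 and -0.25. A smaller set lay apart in the same direction under all 5 scalings tried, 220 genes above (1.05%) and 1095 below (5.25%). This set was put together after the values were seen. It held 25 of the genes named below as higher and 22 named as lower, which include those chosen for wide gaps in these data.

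**Figure D2:**
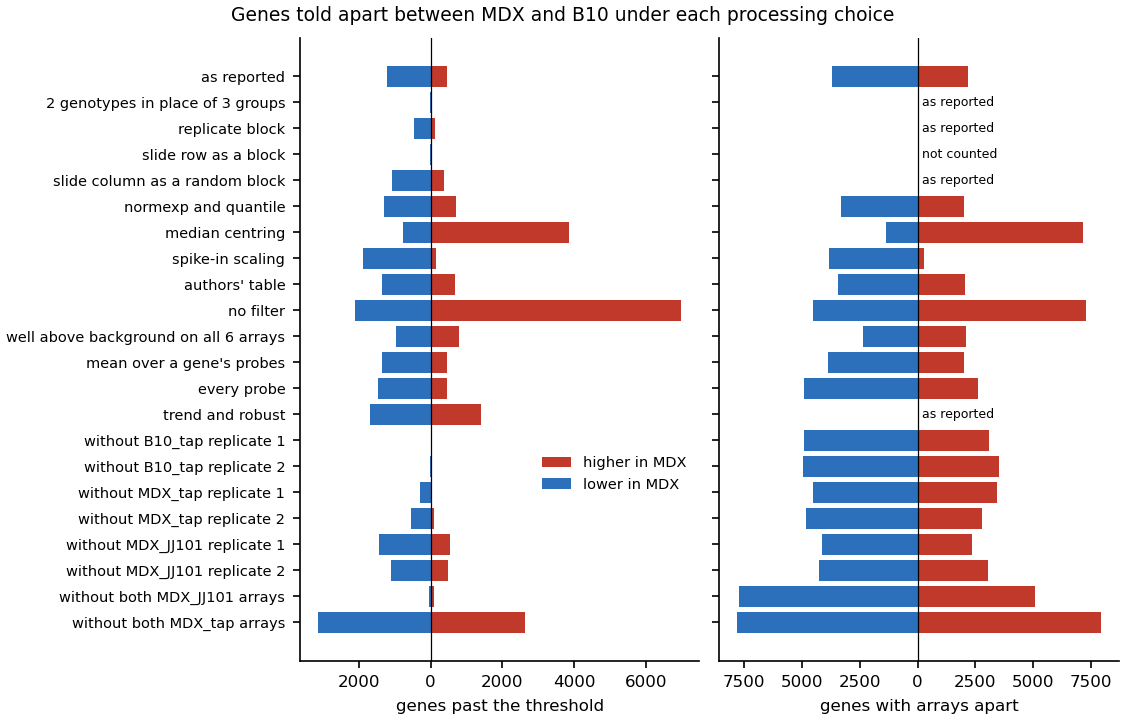
Genes past the threshold (left) and genes with arrays apart (right) under each processing choice; bars to the right are genes higher in MDX and bars to the left genes lower in MDX. The left bars nearly vanish without either B10_tap array, and median centring and spike-in scaling turn the balance opposite ways.

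Dmd fell in MDX muscle RNA. Its level was 1.06 on both B10_tap arrays, -0.84 and -0.27 in MDX_tap and -1.50 and -1.74 in MDX_JJ101, so all 4 MDX arrays lay below both B10_tap arrays by at least 1.33. The difference was -2.15 (SE 0.18, 4.43-fold lower, adjusted p = 0.0172), and all 3 probes of the gene were lower. Dmd lay apart under all 5 scalings, with differences between -2.68 and -1.61 over the alternatives. A probe measures the amount of transcript here, not the mutation. Utrn, which encodes utrophin, stood at -0.47 on both B10_tap arrays, -0.57 and -0.20 on the MDX_tap arrays and -0.72 and -0.90 on the MDX_JJ101 arrays. The groups overlapped, and the difference of -0.12 (SE 0.14, adjusted p = 0.556) was within the spread of the MDX arrays.

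Of 17 measured genes of the dystrophin complex, Dmd alone passed, and 2 lay apart, both below. Among the others the sarcospan gene Sspn had a difference of 0.34 (SE 0.09, adjusted p = 0.0721) and the sarcoglycan gene Sgcd one of 0.43 (SE 0.16, 0.148), and in each the groups overlapped. Sspn stood at 5.51 and 5.57 in B10_tap, against 5.51 and 5.62 for MDX_tap and 6.17 and 6.21 for MDX_JJ101, so that the JJ101 arrays lay clearly above B10_tap and the MDX_tap arrays close to it. The median of the list was 0.10, and it was -0.14 with spike-in scaling.

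Among named genes well above background on all arrays, 12 were taken for their widest gaps upwards. Angptl4, which encodes a secreted inhibitor of lipoprotein lipase, had a level of 0.21 and 0.45 on the B10_tap arrays, 3.06 and 3.21 on the MDX_tap arrays and 2.38 and 3.70 on the MDX_JJ101 arrays. The nearest arrays of the genotypes were 1.92 apart, and the difference was 2.75 (SE 0.37, 6.75-fold, adjusted p = 0.0273). Sprr1a, a small proline-rich protein of cell envelopes that stressed heart cells also make, had -2.95 and -3.42 in B10_tap, against 0.26 and 0.30 for MDX_tap and -0.05 and -1.1 for MDX_JJ101. It rose by 3.04 (SE 0.32, 8.22-fold, adjusted p = 0.0219). Mark1, a kinase of microtubule-binding proteins, rose from -3.63 and -3.08 in B10_tap to between -1.22 and 0.14 on the MDX arrays, a difference of 2.75 (SE 0.37, adjusted p = 0.0274). On all 3 genes both waters lay above B10_tap.

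Cdkn1a, which encodes the cell cycle inhibitor p21, rose on the brighter of its 2 probes. Its level there was 0.78 and 0.71 on the B10_tap arrays, 2.5 and 2.48 on the MDX_tap arrays and 2.79 and 3.27 on the MDX_JJ101 arrays, a difference of 2.02 (SE 0.15, 4.05-fold, adjusted p = 0.0138). The other probe differed by 0.08, so the probes disagree, and the mean over both was 1.05 higher. Ddit4, which encodes an inhibitor of the growth kinase mTORC1, had 3.89 and 3.94 in B10_tap and 4.99 to 6.44 on the MDX arrays (1.66, SE 0.34, adjusted p = 0.0494). The transcription factor gene Myc was dim but tight, with -2.84 and -2.77 in B10_tap, against -1.43 and -1.68 for MDX_tap and -1.52 and -1.40 for MDX_JJ101. It rose by 1.30 (SE 0.11, 2.46-fold, adjusted p = 0.0166), and its waters differed by 0.09 (SE 0.13).

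Nmrk2, a nicotinamide riboside kinase of muscle that feeds NAD synthesis, had 2.20 and 2.46 on the B10_tap arrays, 3.69 and 3.85 on the MDX_tap arrays and 4.51 and 3.72 on the MDX_JJ101 arrays (1.61, SE 0.24, adjusted p = 0.0319). Mthfd2, the mitochondrial folate enzyme, stood at -2.82 and -2.68 in B10_tap, against -0.72 and -1.13 for MDX_tap and 0.78 and -0.11 for MDX_JJ101 (2.45, SE 0.28, 5.48-fold, adjusted p = 0.0219). Both JJ101 arrays exceeded both tap water arrays of MDX on Mthfd2. Ndrg4, a cytoplasmic protein of heart and brain, had 1.42 and 1.63 in B10_tap and 3.33 to 4.46 on the MDX arrays (2.19, SE 0.21, adjusted p = 0.0199).

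A pair of matrix genes and a mast cell gene completed this group. Ccn2, the connective tissue growth factor, had a level of 3.32 and 3.5 on the B10_tap arrays, 5.15 and 4.94 on the MDX_tap arrays and 5.45 and 5.18 on the MDX_JJ101 arrays, a difference of 1.77 (SE 0.13, 3.41-fold, adjusted p = 0.0138). Ltbp2, a microfibril protein of the latent TGF-beta binding family, had -0.06 and -0.10 in B10_tap, against 3.17 and 3.34 for MDX_tap and 3.21 and 1.28 for MDX_JJ101 (2.83, SE 0.53, adjusted p = 0.0423). MDX_JJ101 replicate 2 lay below the other MDX arrays on Ltbp2, though still above both B10_tap arrays. Mcpt4, a chymase of mast cell granules, had -1.01 and -1.33 on the B10_tap arrays, 0.85 and 0.78 on the MDX_tap arrays and 0.54 and 0.05 on the MDX_JJ101 arrays (1.73, SE 0.18, adjusted p = 0.0219). All 12 genes lay apart under all 5 scalings, but their choice for wide gaps in these same data favours that, so it is no separate support.

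**Figure D3:**
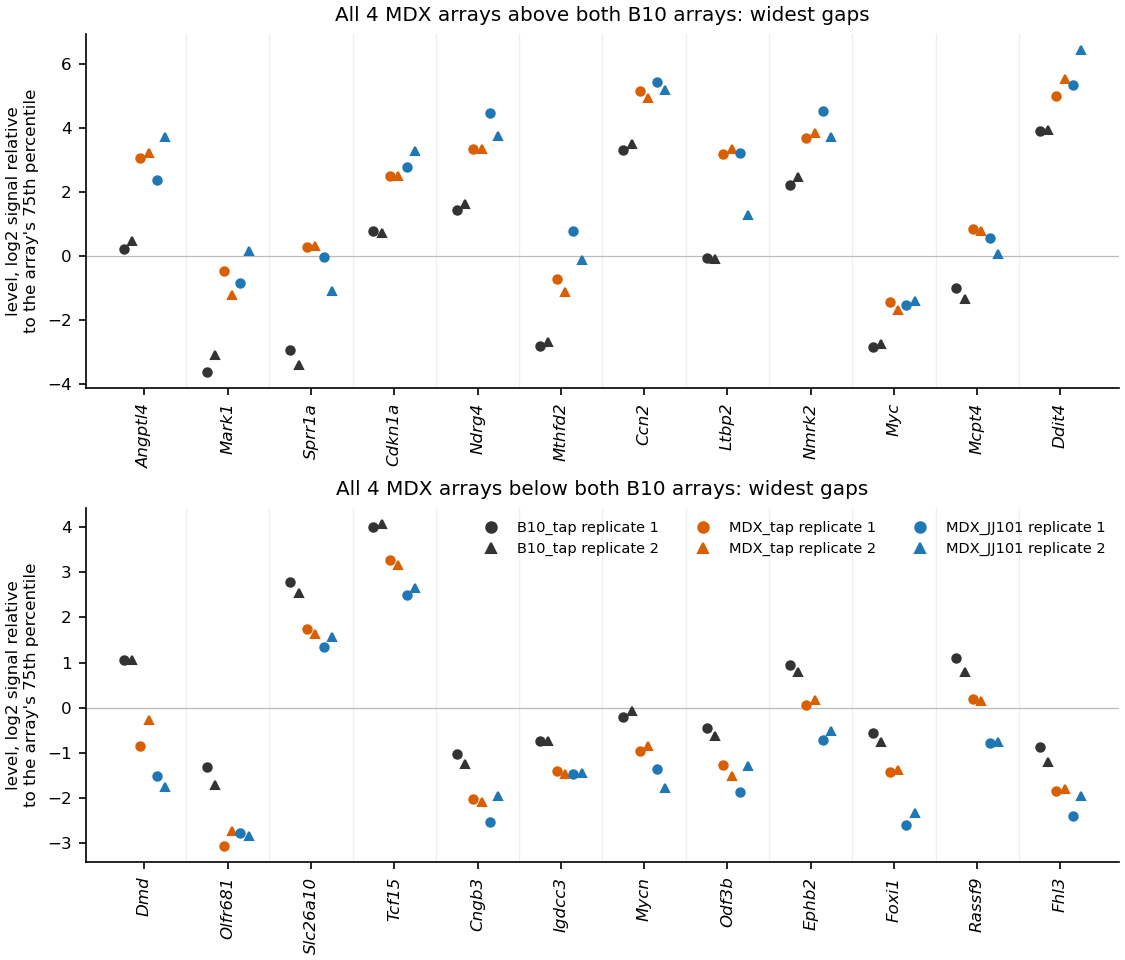
Levels on each of the 6 arrays, as log2 signal relative to the array's 75th percentile, of the 12 genes with the widest gap upwards (top) and downwards (bottom); each point is 1 array, coloured by group and shaped by replicate. Every MDX point lies on one side of both B10_tap points of its gene, and MDX_JJ101 replicate 2 sits low on Ltbp2 at 1.28.

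Only 4 transcripts were well above background on all 4 MDX arrays and on neither B10_tap array, and 3 of them had a symbol. Spp1, which encodes osteopontin, a secreted protein of macrophages in injured muscle, had 0.30 and -0.47 in MDX_tap and -1.77 and -2.91 in MDX_JJ101, against -4.92 and -4.54 in B10_tap. It was at least 7.83-fold higher in MDX (adjusted p = 0.0219), and the tap water arrays lay above the JJ101 arrays by 2.26 on average (SE 0.45). Serpina3i, a serine protease inhibitor, was at least 3.29-fold higher (adjusted p = 0.0494), with MDX levels between -3.30 and -1.82, and its 2 probes differed by 2.14 and 0.65. Tmem63c, a membrane protein of a channel family, was at least 2.96-fold higher (adjusted p = 0.027), with MDX levels between -3.00 and -1.87. The bound sets the mean of the MDX arrays against the lowest signal called well above background on the B10_tap arrays. These 3 genes passed the filter through MDX arrays alone, so no support is drawn from their p-values.

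Downwards, the widest gaps after Dmd were smaller. Tcf15, a transcription factor gene active in the endothelium of heart and muscle, had a level of 4.0 and 4.07 in B10_tap, against 3.26 and 3.15 for MDX_tap and 2.49 and 2.65 for MDX_JJ101. It fell by 1.15 on the log2 scale (SE 0.10, adjusted p = 0.0166), and the MDX arrays on JJ101 lay below those on tap water. Ephb2, a receptor for ephrins, had 0.94 and 0.79 on the B10_tap arrays, 0.05 and 0.16 on the MDX_tap arrays and -0.71 and -0.51 on the MDX_JJ101 arrays (-1.11, SE 0.11, adjusted p = 0.0194). Rassf9, a protein of recycling endosomes, had 1.1 and 0.80 in B10_tap, against 0.19 and 0.14 for MDX_tap and -0.79 and -0.77 for MDX_JJ101 (-1.25, SE 0.11, adjusted p = 0.0177). The same order, B10_tap above MDX_tap above MDX_JJ101, held for these 3 genes on every array.

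Mycn, the relative of Myc, went the other way from it. Its level was -0.20 and -0.07 on the B10_tap arrays, -0.96 and -0.85 on the MDX_tap arrays and -1.36 and -1.77 on the MDX_JJ101 arrays, a difference of -1.1 (SE 0.14, adjusted p = 0.0257). Slc26a10, of the anion exchanger family, had 2.78 and 2.54 in B10_tap and 1.33 to 1.74 on the MDX arrays (-1.09, SE 0.12, adjusted p = 0.0219). Igdcc3, of the immunoglobulin superfamily, was the most even, with -0.75 and -0.74 in B10_tap and -1.47 to -1.41 on the MDX arrays (-0.70, SE 0.08, adjusted p = 0.0219). On Igdcc3 the waters differed by -0.02 (SE 0.09).

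The other 5 of these genes lay between -3.06 and -0.45 on every array. Olfr681, an olfactory receptor gene, differed by -1.33 (SE 0.16, adjusted p = 0.0238), Cngb3, a channel subunit of cone photoreceptors, by -1.01 (SE 0.18, 0.0403) and Foxi1, a transcription factor gene of ion-transporting epithelia, by -1.27 (SE 0.12, 0.0194). These genes are best known from other tissues. Odf3b differed by -0.94 (SE 0.19, adjusted p = 0.0493) and Fhl3, a LIM protein of muscle, by -0.96 (SE 0.17, 0.0389). The second probe of Fhl3 stood at 0.07, so the probes of that gene disagree.

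On 515 genes both B10_tap arrays and no MDX array were well above background. They passed the filter through B10_tap alone, where they are high. Their p-values set B10_tap against MDX signals not well above background, and no support is drawn from them. The smallest adjusted p of the comparison belonged to one of them, 1700028P14Rik, a transcript of unknown function. Its level was -2.20 and -1.87 in B10_tap, against -6.29 and -5.98 for MDX_tap and -5.47 and -5.40 for MDX_JJ101, a gap of 3.21 between the nearest arrays. It was at least 3.10-fold lower in MDX (adjusted p = 0.0061). Cps1, the first enzyme of the urea cycle in liver, had -1.57 and -1.77 in B10_tap and -5.25 to -4.35 on the MDX arrays, giving a level at least 3.99-fold lower in MDX (adjusted p = 0.0165).

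The B10_tap arrays agreed on Cps1 but disagreed on 4 other genes of liver-secreted proteins and enzymes. Alb, serum albumin, had -1.91 and -0.15 on the B10_tap arrays, -4.62 and -5.76 on the MDX_tap arrays and -2.97 and -5.19 on the MDX_JJ101 arrays. It was at least 5.83-fold lower, but did not pass (adjusted p = 0.0607). Mup5, a major urinary protein, was at least 6.39-fold lower (adjusted p = 0.0728), with -2.73 and 0.75 in B10_tap. Apoc3, an apolipoprotein, and Bhmt, a betaine-dependent methyltransferase, were at least 4.19-fold and 3.88-fold lower (adjusted p = 0.108 and 0.0528). On all 4 of these genes B10_tap replicate 2 lay well above replicate 1.

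Of 24 liver-type genes, a list written after the values were seen, 20 passed the filter on low signal. Of these, 7 were well above background on all 6 arrays and 9 on the B10_tap arrays alone, so members entered through the group where they were high and no count of their directions is given. Their summed level was 5.58 and 5.91 in B10_tap, against 5.83 and 5.93 for MDX_tap and 5.41 and 5.05 for MDX_JJ101. The sums of the genotypes overlapped. A sum of signals follows its brightest members, so it cannot show a change in dim ones such as Alb and Cps1. The part of liver RNA in the lower genes was not tested.

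The gene lists are described beside the shares over all genes, of which 10.4% lay apart above B10_tap and 17.7% below. Of 22 genes of matrix turnover and TGF-beta signalling, 12 lay apart above and 0 below, 7 passed upwards, and the median difference was 0.61 against -0.0028 over all genes. Tgfb3, a TGF-beta ligand, had 2.35 and 2.45 in B10_tap and 2.95 to 3.34 on the MDX arrays (0.77, SE 0.10, adjusted p = 0.0244). Adamts4, a protease of proteoglycans, rose by 1.31 (SE 0.21, adjusted p = 0.0345), with 3 of 4 MDX arrays well above background. Under the 5 scalings the median of this list ran from 0.37 to 0.90.

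Of 15 collagen genes 6 lay apart above, 1 passed and the median was 0.54, running from 0.30 to 0.83 over the 5 scalings. None of the 15 lay apart under all 5. Col1a1, of fibrillar type I collagen, had 2.75 and 2.88 in B10_tap, against 4.11 and 4.13 for MDX_tap and 4.37 and 3.5 for MDX_JJ101 (1.21, SE 0.25, adjusted p = 0.0494). Col3a1, its partner in loose fibrils, had 4.09 and 3.91 on the B10_tap arrays, 5.70 and 5.83 on the MDX_tap arrays and 5.33 and 4.18 on the MDX_JJ101 arrays, and did not pass (1.26, SE 0.32, adjusted p = 0.0746). On both genes MDX_JJ101 replicate 2 was the lowest MDX array. Col5a1 (0.60, SE 0.16, adjusted p = 0.083) and Col5a2 (0.92, SE 0.25, 0.0816), of the collagen that starts fibrils, did not pass, and on Col5a2 the groups overlapped.

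That 1 array set much of the count. Without MDX_JJ101 replicate 2, 14 of the 15 collagens lay apart above, with a median of 0.71. Among 19 matrix glycoproteins and proteoglycans the number apart above went from 8 to 12. Over all 20870 genes it went from 2171 to 3040, with fewer arrays to separate. This alternative was chosen after the values were seen.

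In the glycoprotein list Fbln1, which encodes fibulin of elastic fibres, passed, with 2.36 and 2.22 in B10_tap, against 3.98 and 4.23 for MDX_tap and 3.78 and 3.01 for MDX_JJ101 (1.46, SE 0.23, adjusted p = 0.0348). Comp, a matrix protein of cartilage and tendon, had -0.26 and -0.37 on the B10_tap arrays, 3.02 and 3.08 on the MDX_tap arrays and 3.04 and 0.91 on the MDX_JJ101 arrays (2.82, SE 0.58, adjusted p = 0.0502). Fibronectin (Fn1) differed by 1.11 (SE 0.24, adjusted p = 0.0565). Tnc, tenascin C of wounds, did not pass (adjusted p = 0.0526), with 3 of 4 MDX arrays and neither B10_tap array well above background. Of 10 fibroblast genes 2 lay apart above and none passed, among them Pi16 at 0.88 (SE 0.20, adjusted p = 0.0584) and the microfibril gene Mfap5 at 0.95 (SE 0.23, 0.0672). Fap at -0.33 (SE 0.17, adjusted p = 0.251) and Pdgfra at 0.23 (SE 0.14, 0.301) had overlapping groups. The median of this list was 0.087, with 0.41 on tap water and -0.15 on JJ101. In bulk RNA, fewer cells of a type and less RNA per cell cannot be told apart.

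Genes of macrophages were higher on tap water than on JJ101. Of 23 measured, 7 lay apart above, 5 passed upwards, and the median was 0.41. Both counts hold Spp1, which passed the filter through MDX arrays alone and from whose p-value no support is drawn. The summed level of the list was 7.29 to 7.34 in B10_tap and 7.24 to 8.27 in MDX. Trem2, a lipid receptor of macrophages, had 0.95 and 0.98 in B10_tap, against 2.85 and 2.51 for MDX_tap and 1.85 and 1.20 for MDX_JJ101 (1.14, SE 0.21, adjusted p = 0.0425). Lgals3, galectin 3, had 2.11 and 2.21 on the B10_tap arrays, 4.88 and 4.16 on the MDX_tap arrays and 3.83 and 2.80 on the MDX_JJ101 arrays (1.75, SE 0.34, adjusted p = 0.0467). The lysosomal gene Laptm5 rose by 0.58 (SE 0.10, adjusted p = 0.0407). On these 3 genes both tap water arrays of MDX lay above both JJ101 arrays. Of the 23, 15 passed as lower on JJ101 than on tap water, as did 16.1% of all genes. Without both MDX_JJ101 arrays 20 of the 23 lay apart above and 2 passed, where 5091 of all 20870 genes lay apart above and 90 passed upwards.

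Of 7 mast cell genes 3 lay apart above, 1 below, and 2 passed, with a median of 1.07. Fcer1a, the alpha chain of the IgE receptor, was well above background on 2 of 4 MDX arrays and on neither B10_tap array (adjusted p = 0.0138). No bound is given, because its MDX mean holds arrays not well above background. Hdc, the histamine-forming enzyme, stood at 0.73 (SE 0.18, adjusted p = 0.0686). The chymase Cma1 did not pass (adjusted p = 0.129), with 2 of 4 MDX arrays well above background and overlapping groups. Normexp with quantile normalization lowered that median to 0.31. The summed level of the list was 0.75 to 0.92 in B10_tap and 1.16 to 1.98 in MDX.

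Of 16 chemokine genes 4 lay apart above, 1 below, and 2 passed. Ccl6 had 3.39 and 3.15 in B10_tap, against 4.65 and 4.43 for MDX_tap and 3.77 and 3.76 for MDX_JJ101 (0.88, SE 0.12, adjusted p = 0.0266). Ccl9 had 2.30 and 2.07 on the B10_tap arrays, 3.53 and 3.43 on the MDX_tap arrays and 2.71 and 2.46 on the MDX_JJ101 arrays (0.85, SE 0.12, adjusted p = 0.0301). Both encode attractants of myeloid cells, and both were lower on JJ101 than on tap water. Ccl8, a monocyte attractant, differed by 1.68 (SE 0.37, adjusted p = 0.0553) and Cx3cl1, which is bound to membranes, by 0.53 (SE 0.13, 0.0641). The list's median of 0.12 was -0.12 with spike-in scaling.

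Of 6 NADPH oxidase genes, which make superoxide, Ncf1 passed, with -1.37 and -1.43 in B10_tap, against -0.32 and -0.54 for MDX_tap and -1.13 and -1.01 for MDX_JJ101 (0.65, SE 0.10, adjusted p = 0.0345). The others of smallest p were Nox4 at 0.95 (SE 0.34, adjusted p = 0.132), Cyba at 0.36 (SE 0.14, 0.148) and Rac2 at 0.54 (SE 0.24, 0.188). The groups overlapped on Nox4 and Rac2. Of 20 antioxidant genes 4 lay apart above, 1 below, and none passed; Gsr, Gpx3 and Sod3 stood at 0.38, 0.42 and 0.29 (adjusted p = 0.0779, 0.0782 and 0.0842).

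Genes of mechanical strain and injury that passed were all higher in MDX. Of 16 measured, 7 passed, 7 lay apart above and 0 below, with a median of 0.48. Gadd45b, a stress sensor of growth arrest, had 0.31 and 0.32 on the B10_tap arrays, 0.84 and 0.95 on the MDX_tap arrays and 1.67 and 1.30 on the MDX_JJ101 arrays (0.87, SE 0.13, adjusted p = 0.0313). Hspb1, a small heat shock protein of the cytoskeleton, had 7.47 and 7.43 in B10_tap, against 7.80 and 7.66 for MDX_tap and 8.41 and 8.48 for MDX_JJ101 (0.64, SE 0.09, adjusted p = 0.0288). Des, the muscle intermediate filament desmin, had 5.04 and 4.92 on the B10_tap arrays, 5.15 and 5.08 on the MDX_tap arrays and 6.23 and 6.42 on the MDX_JJ101 arrays (0.74, SE 0.10, adjusted p = 0.0275). On Des the tap water arrays exceeded B10_tap by 0.04 at the nearest, so the call rested mainly on JJ101. None of the list passed without both MDX_JJ101 arrays, where 9 lay apart above and 2 below. Of all 20870 genes 5091 lay apart above and 7713 below in that run.

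Immediate early genes gave 3 calls upwards among 17, with 3 apart above and a median of 0.24, or -0.0022 with spike-in scaling. Besides Myc these were Maff, with -0.23 and -0.16 in B10_tap, against 1.06 and 1.16 for MDX_tap and 0.27 and 0.44 for MDX_JJ101 (0.93, SE 0.10, adjusted p = 0.0219), and Fosl2, with 1.52 and 1.58, 3.26 and 3.04, and 1.74 and 2.02 in the same order (0.96, SE 0.12, adjusted p = 0.0254). Both encode basic leucine zipper factors, and both stood higher on tap water. Egr2, a zinc finger factor, differed by 1.32 with overlapping groups (SE 0.38, adjusted p = 0.089).

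Heat shock and glucocorticoid-induced genes had the largest shares of members above B10_tap. Of 16 chaperones and stress genes of the endoplasmic reticulum, 9 lay apart above and 0 below, and 2 passed, with a median of 0.30 that ran from 0.052 to 0.58 over the scalings. Hsph1, a large chaperone that recharges the main heat shock proteins, had 2.60 and 2.67 on the B10_tap arrays, 3.49 and 3.33 on the MDX_tap arrays and 3.46 and 3.33 on the MDX_JJ101 arrays (0.77, SE 0.10, adjusted p = 0.0253). The waters were nearly equal on Hsph1, 0.01 apart (SE 0.11). Hsp90aa1, an inducible chaperone, had 4.68 and 4.71 in B10_tap, 5.44 on both MDX_tap arrays and 4.90 and 4.81 in MDX_JJ101 (0.46, SE 0.08, adjusted p = 0.0414). Pdia4 and Xbp1, of the endoplasmic reticulum, stood at 0.66 and 0.34 (adjusted p = 0.0569 and 0.0889). No heat shock gene lay apart under all 5 scalings.

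Of 18 glucocorticoid-induced genes 10 lay apart above, 0 below, and 6 passed upwards, with a median of 0.58 that ran from 0.34 to 0.87 over the scalings; 5 lay apart above under all 5. Fkbp5, a co-chaperone of the glucocorticoid receptor, had 0.79 and 0.99 in B10_tap, against 1.70 and 2.13 for MDX_tap and 2.74 and 3.07 for MDX_JJ101 (1.53, SE 0.17, adjusted p = 0.0219). Mt2, a metallothionein that binds zinc and copper, had 4.14 and 4.70 on the B10_tap arrays, 6.04 and 5.38 on the MDX_tap arrays and 6.77 and 7.19 on the MDX_JJ101 arrays (1.92, SE 0.27, adjusted p = 0.0287). Errfi1, a feedback inhibitor of the EGF receptor, had 3.04 and 2.96 in B10_tap, against 4.55 and 4.42 for MDX_tap and 3.29 and 3.60 for MDX_JJ101 (0.96, SE 0.12, adjusted p = 0.0243). Fkbp5 and Mt2 were higher on JJ101 and Errfi1 was higher on tap water, so members of this list parted between the waters. Cdkn1a and Ddit4 belong to the list as well.

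The starts of 3 genes that rose are shown because their families are classic examples of control through short promoter motifs. They are the 250 bases before the transcription start from RefSeq (GRCm38.p6), 5′ to 3′ on the gene's strand, with motif matches in capitals. The motifs searched on both strands were TTCNNGAA (the core of a heat shock element) for Hsph1, TGATGNAAN (an amino acid response element) for Chac1, and TGCACNC or TGCGCNC (the core of a metal response element) for Mt2. Chac1 encodes an enzyme that breaks down glutathione and is described with the waters.
Hsph1, chr5:149636337-149636586, minus strand: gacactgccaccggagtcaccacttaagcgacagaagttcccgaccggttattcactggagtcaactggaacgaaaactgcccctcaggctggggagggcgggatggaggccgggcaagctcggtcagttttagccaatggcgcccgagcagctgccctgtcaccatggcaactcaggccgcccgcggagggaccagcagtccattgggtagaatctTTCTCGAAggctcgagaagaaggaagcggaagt
Chac1, chr2:119350992-119351241, plus strand: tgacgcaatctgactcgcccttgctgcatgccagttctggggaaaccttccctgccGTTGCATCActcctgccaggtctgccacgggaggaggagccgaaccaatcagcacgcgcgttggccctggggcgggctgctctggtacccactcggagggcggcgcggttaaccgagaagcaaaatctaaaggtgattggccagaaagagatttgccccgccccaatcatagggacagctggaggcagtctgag
Mt2, chr8:94172368-94172617, plus strand: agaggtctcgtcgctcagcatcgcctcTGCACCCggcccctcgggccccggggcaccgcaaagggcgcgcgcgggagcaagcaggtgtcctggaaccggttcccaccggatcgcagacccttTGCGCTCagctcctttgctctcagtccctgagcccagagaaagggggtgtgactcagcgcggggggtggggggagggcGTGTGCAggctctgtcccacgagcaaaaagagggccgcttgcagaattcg

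The window of Hsph1 held 1 match, 33 bases before the start, that of Chac1 1 match, 194 bases before it, and that of Mt2 3 matches, at 50, 128 and 223 bases. Of 32851 windows of the same length, 7.17% held TTCNNGAA, 3.44% TGATGNAAN and 21.4% either metal motif. Of 17 heat shock genes listed, 14 had a window and 3 of these a match. Also searched were Mthfd2, which rose too and had 0 matches to the amino acid motif, and Mt1, with 1 match to a metal motif. A match describes these letters and is not a bound site.

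Clock genes gave calls in both directions. Of 17 measured, 1 passed upwards and 2 downwards, 3 lay apart above and 4 below, shares near the 10.4% and 17.7% of all genes. Nfil3, a repressor of clock output genes, had 1.20 and 1.21 on the B10_tap arrays, 1.91 and 1.85 on the MDX_tap arrays and 2.14 and 2.44 on the MDX_JJ101 arrays (0.88, SE 0.11, adjusted p = 0.0256). Hlf, which activates the same D-box sites, had 1.54 and 1.49 in B10_tap, against 0.47 and 0.56 for MDX_tap and 0.85 and 1.21 for MDX_JJ101 (-0.74, SE 0.13, adjusted p = 0.0382). Dbp, its close relative, fell by 0.76 on the log2 scale (SE 0.12, adjusted p = 0.0342). Its level was 5.62 and 5.94 in B10_tap, against 4.46 and 4.38 for MDX_tap and 5.62 on both MDX_JJ101 arrays, so the JJ101 arrays overlapped B10_tap. Ciart, a repressor of the clock, differed by -0.85 with overlapping groups (adjusted p = 0.0619). Hours of tissue collection are not given in the sources used here.

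Among heart genes Nppa, which encodes atrial natriuretic peptide, passed, with 7.09 and 7.48 on the B10_tap arrays, 8.97 and 8.52 on the MDX_tap arrays and 9.99 and 9.34 on the MDX_JJ101 arrays (1.92, SE 0.25, 3.78-fold, adjusted p = 0.0257). It lay apart under all 5 scalings. The transcription factor genes Hand2 and Tbx20 stood at 0.57 and 0.40 (adjusted p = 0.0596 and 0.0812), and Nkx2-5 at 0.26 with overlapping groups (0.124). Of 11 contractile genes 3 lay apart above and 3 below. Mybpc3, the myosin-binding protein of heart filaments, passed, with 9.11 and 9.15 in B10_tap, against 9.29 and 9.40 for MDX_tap and 9.92 and 9.89 for MDX_JJ101 (0.49, SE 0.08, adjusted p = 0.0379). Myh7, the beta myosin heavy chain, had 5.24 and 5.75 on the B10_tap arrays, 6.53 and 5.91 on the MDX_tap arrays and 6.79 and 7.0 on the MDX_JJ101 arrays and did not pass (1.06, SE 0.24, adjusted p = 0.058). Myl4, the atrial light chain, stood at 0.42 (0.104).

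Fast fibre genes split by water rather than by genotype. Of 13 measured, 1 lay apart above and 0 below. Myh4 passed downwards (adjusted p = 0.0395) with overlapping groups, since the MDX_tap arrays lay on both sides of B10_tap. It was at least 54.4-fold lower in MDX_JJ101 than in B10_tap, while MDX_tap differed by -0.23. Tnnc2 and Tnnt3, troponins of fast fibres, differed by -2.31 and -2.16 (adjusted p = 0.1 and 0.106) with the same overlap. Mybpc2, the fast myosin-binding protein, went the other way, with 1.30 and 1.33 in B10_tap, against 1.53 and 1.65 for MDX_tap and 2.31 and 2.54 for MDX_JJ101 (0.69, SE 0.11, adjusted p = 0.0329). Of 11 measured limb muscle regulators Pax7, the factor of muscle stem cells, passed downwards (adjusted p = 0.0313). It had -2.5 and -2.45 on the B10_tap arrays, -3.16 and -3.19 on the MDX_tap arrays and -4.36 and -5.14 on the MDX_JJ101 arrays, where neither array was well above background. MDX_tap differed from B10_tap by -0.70, and MDX_JJ101 was at least 1.79-fold lower.

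Energy genes gave few calls in the mean of both waters, and the waters went opposite ways. Of 19 genes of glycolysis and glycogen 3 lay apart above and Hk1, hexokinase, passed, with 4.60 and 4.74 in B10_tap, against 4.93 and 4.91 for MDX_tap and 5.82 and 5.89 for MDX_JJ101 (0.71, SE 0.09, adjusted p = 0.0244). Slc2a1, a glucose transporter, and Gpi1, a glycolytic isomerase, stood at 0.49 and 0.47 (adjusted p = 0.0598 and 0.0617). Of 28 genes of oxidative phosphorylation 5 lay apart below, close to the 17.7% of all genes, and none passed. Cox7b, Cox6c, Ndufa4 and Ndufa1 stood at -0.35, -0.31, -0.31 and -0.22 (adjusted p between 0.077 and 0.168), and Ndufa1 at 0.067 with median centring. No gene of the citric acid cycle lay apart, and of 20 genes of fatty acid uptake and oxidation 2 lay apart below with no call. On tap water alone 26 of the 28 oxidative phosphorylation genes and 10 of the 12 citric acid cycle genes lay below both B10_tap arrays, with no call. Fewer arrays had to separate there, and 7713 of all 20870 genes lay below. On JJ101 alone 17 and 10 of them lay above, with 2 and 7 past the threshold upwards, and all 19 glycolysis genes did, of which 11 passed. Over all 20870 genes 7913 lay above on JJ101 alone and 2637 passed upwards. Within MDX, JJ101 was higher by limma on 13 oxidative phosphorylation, 10 citric acid cycle and 13 glycolysis genes, and on 19.9% of all genes.

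Endothelial genes leaned below B10_tap, by a median of -0.14 on tap water and -0.54 on JJ101. Of 15 endothelial genes 8 lay apart below and 1 above, and 1 passed, with a median of -0.38 that ran from -0.63 to -0.096 over the scalings. Tie1, a receptor of endothelial cells, had 2.54 and 2.39 on the B10_tap arrays, 2.04 and 1.78 on the MDX_tap arrays and 1.83 and 1.94 on the MDX_JJ101 arrays (-0.57, SE 0.12, adjusted p = 0.0495). The growth factor receptor genes Tek, Kdr and Flt1 stood at -0.52, -0.55 and -0.38 (adjusted p = 0.0517, 0.0598 and 0.0665). On Tek the groups overlapped. No endothelial gene lay apart under all 5 scalings. The summed level of the list was 9.17 and 9.25 in B10_tap, against 9.28 and 9.16 for MDX_tap and 8.81 and 8.77 for MDX_JJ101. The MDX_tap sums thus overlapped B10_tap.

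Of 12 genes of smooth muscle and pericytes 1 passed upwards and 2 downwards, 1 lay apart above and 3 below, and the median was -0.12. Des, described above, was the one that rose. Rgs5 and Kcnj8, both marks of pericytes, fell by 0.44 and 0.60 on the log2 scale (SE 0.08 and 0.12, adjusted p = 0.0415 and 0.0487). Rgs5 stood at 5.23 on both B10_tap arrays, 5.06 and 5.07 in MDX_tap and 4.55 and 4.49 in MDX_JJ101. Of 10 Schwann cell and nerve genes 4 lay apart below, 0 above, and 3 passed downwards, with a median of -0.46. Sox10, the factor of the glial lineage, had -0.81 and -1.06 in B10_tap and -1.69 to -1.46 on the MDX arrays (-0.67, SE 0.12, adjusted p = 0.0423). Gfra3, a receptor of nerve growth signals, stood at -0.55 (0.0526). The summed level of these 10 genes was 3.78 to 3.91 in B10_tap and 3.58 to 4.36 in MDX, which overlapped.

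Of 5 measured neutrophil genes 1 passed, downwards, and 2 lay apart below and 0 above. Elane, the neutrophil elastase, had 1.53 and 1.42 on the B10_tap arrays, 1.05 and 1.18 on the MDX_tap arrays and 0.51 and 0.21 on the MDX_JJ101 arrays (-0.74, SE 0.12, adjusted p = 0.0357), and Csf3r stood at -0.42 (0.0643). S100a9, a calcium-binding protein of neutrophils, differed by 1.15 (SE 0.61, adjusted p = 0.255) and Camp, an antimicrobial peptide, by -0.64 (0.2), both with overlapping groups. No measured member passed among T and NK cells (11 genes), MHC class II (6), interferon response (15), cell cycle (16), ribosomal proteins (22), atrophy and autophagy (15), calcium handling (14), adipocytes (7) or red blood cells (6).

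**Figure D4:**
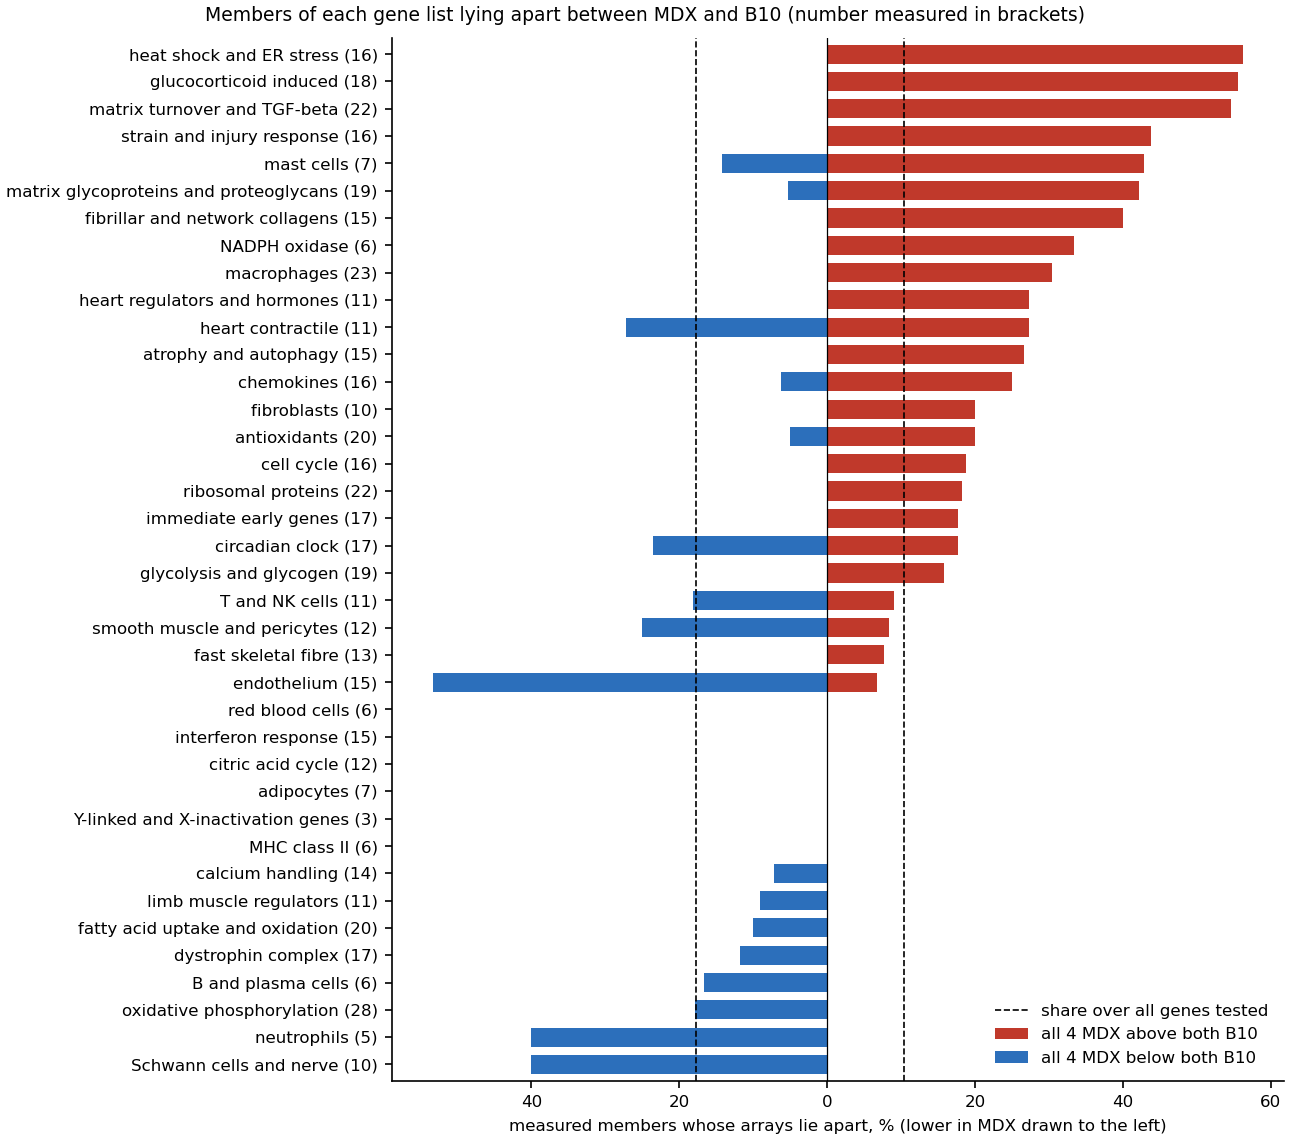
Share of the measured members of each gene list on which all 4 MDX arrays lay above both B10_tap arrays (right) or below both (left), with the number measured in brackets; dashed lines mark the share over all 20870 genes, 10.4% above and 17.7% below. Heat shock, glucocorticoid-induced and matrix turnover genes reach furthest right and endothelial genes furthest left.

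Each water was also set against B10_tap on its own, with the B10_tap arrays shared by both comparisons. By limma, 0 genes passed upwards and 5 downwards (0.024%) on tap water, where 4383 had an unadjusted p under 0.05. On JJ101 3376 passed upwards (16.2%) and 3633 downwards (17.4%). Within MDX the waters differed from each other on 7530 genes (36.1%), with JJ101 higher on 4160 (19.9%) and lower on 3370 (16.1%). Of the 471 genes that rose in the mean of both MDX groups 292 also differed between the waters, 234 with JJ101 higher. Of the 1215 that fell 744 did, 724 with JJ101 lower. Most of these genes were thus further from B10_tap on JJ101, whose arrays also had the smallest share of spots well above background.

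Among named genes that passed with arrays apart and were well above background on all 6 arrays, the largest differences between the waters were those of Chac1, Gdap10, Kcnj4, Gpnmb, Klra9 and Zfp273. Chac1 had 0.59 and 0.25 in B10_tap, against 0.66 and 1.24 for MDX_tap and 2.82 and 3.21 for MDX_JJ101 (1.56, SE 0.22, adjusted p = 0.029), and the waters differed by 2.07 (adjusted p = 0.013). Kcnj4, a potassium channel, had -2.5 and -2.22 on the B10_tap arrays, -1.32 and -2.07 on the MDX_tap arrays and -0.41 and 0.30 on the MDX_JJ101 arrays (1.48, SE 0.30, adjusted p = 0.0477). Gpnmb, a glycoprotein of lipid-laden macrophages, had -1.68 and -1.81 in B10_tap, against 1.06 and 0.25 for MDX_tap and -0.50 and -1.33 for MDX_JJ101 (1.61, SE 0.32, adjusted p = 0.0477). JJ101 was the higher water on Chac1 and Kcnj4 and the lower on Gpnmb.

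Downwards, Gdap10 differed from B10_tap by -0.58 on tap water and -2.25 on JJ101, Klra9, a receptor of NK cells, by -0.78 and -2.20, and Zfp273, a zinc finger gene, by -0.21 and -1.62. Their adjusted p values for the mean of both waters were 0.0274, 0.0274 and 0.0342. On all 3 the JJ101 arrays lay furthest from B10_tap.

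**Figure D5:**
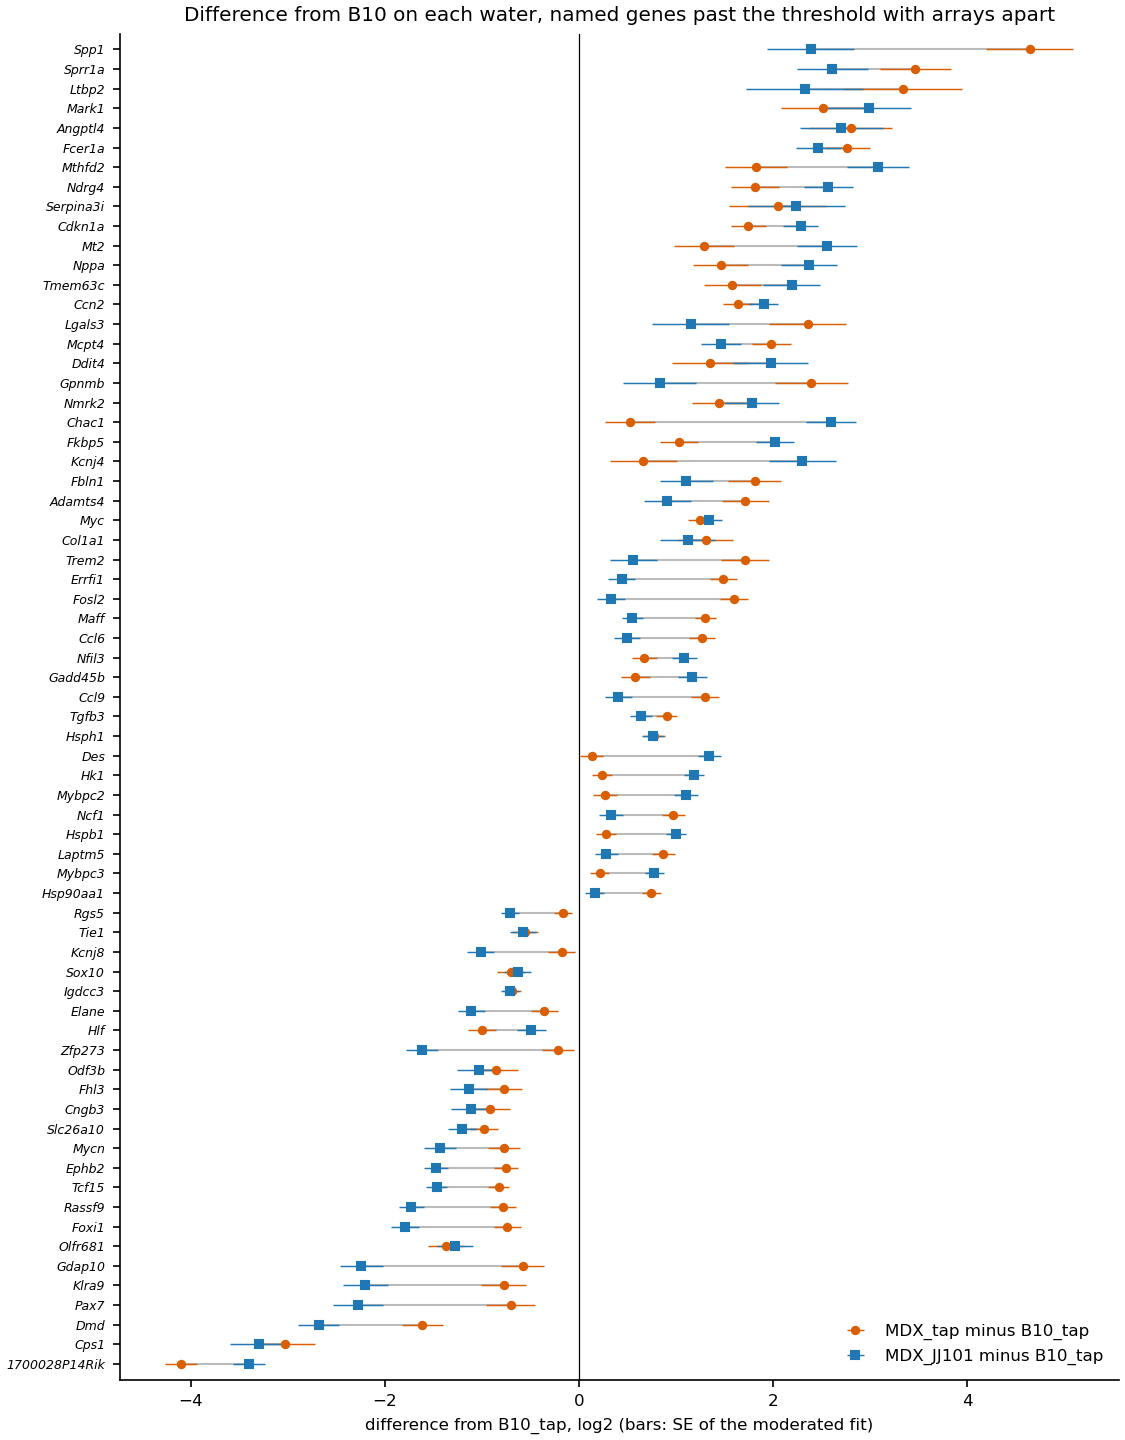
Difference from B10_tap on each water, on the log2 scale, for the 68 named genes that passed with arrays apart; circles are MDX_tap and squares MDX_JJ101, and bars are the standard error of the moderated fit, with probes below background in a group drawn as measured. Both waters have the same sign on every gene, which the choice of genes with arrays apart fixes; Chac1, Gdap10 and Des show wide distances between the waters and Myc, Angptl4 and Hsph1 narrow ones.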

How the data were processed

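Muscle RNA of 6 samples was labelled with Cy3 and hybridised to 1-colour Agilent arrays, and per the submitters' processing notes the scans were read by version 11.5.1.1 of Agilent Feature Extraction. The deposited scanner files hold each spot's intensity, already background-corrected, and per the file headers the mm9 build. The authors' deposited table holds log2 values, which matched the rank order of the median spot signal (Spearman 1) and shared 1 distribution across arrays (column medians 5.68 to 5.69). Its normalization is not given in the sources used here, and it served as an alternative.

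Each array's log2 processed signal was set relative to its 75th percentile over 59305 non-control spots. Spots that were non-uniform or population outliers were left out (8 missing values remained), and spots of a probe were averaged. A probe was kept if 1 or more groups had it well above background on each array (27260 of 55681), and the brightest probe stood for its gene. Symbols came from RefSeq accessions (GRCm38.p6, names only) for 27656 probes, and 28025 had none. limma 3.58.1 in R 4.3.3 fitted the 3 groups with 3 residual and 2.21 prior degrees of freedom. The contrast was the mean of MDX_tap and MDX_JJ101 minus B10_tap, two-sided, with Benjamini-Hochberg adjustment over 20870 genes. In simulated data with 200 changed genes among 20862, 85.0% of those with a log2 change of 1 and 96.0% of those with 2 were recovered. The number of arrays limits the precision.

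Genes were named by rule: Dmd and Utrn; the 12 genes each way with the widest gap; up to 6 each way measured in 1 genotype only; up to 4 members of smallest p per list; and 6 with the largest water difference. A few genes chosen this way were left out of the text. Clone names and repeats of a family were left out of the widest gaps. Members and lists were chosen with earlier results of these data known. Alternatives covered background correction (normexp with an offset of 50 used the median spot signal, as the planned mean signal was not a column), scaling, filter, probe rule, blocks and left-out arrays.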

Additional observations from a re-analysis of the deposited data

Results flagged for a closer look

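On 4 of 117 named genes MDX_JJ101 replicate 2 lay far below the other MDX arrays, by Dixon's test on 4 arrays: Ltbp2 (1.28), Col5a1 (1.39), Comp (0.91) and Mfap5 (4.07). All belong to the extracellular matrix, and several of the lists that genes were named from hold matrix genes. Chance marks about 1 group in 20, a share that these 4 of 117 do not exceed.

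On 50 of 117 named genes MDX_JJ101 differed from MDX_tap by limma with an adjusted p under 0.05, against 36.1% of all genes; 17 were higher and 33 lower on JJ101. Values are JJ101 minus tap water on the log2 scale. Among dystrophin complex genes Dmd differed by -1.07 and Sspn by 0.62. Of the genes with the widest gaps Mthfd2 differed by 1.26, Tcf15 by -0.64, Mycn by -0.65, Ephb2 by -0.72, Foxi1 by -1.06 and Rassf9 by -0.94. Spp1, measured in MDX only, differed by -2.26.

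Lower on JJ101 were the matrix, macrophage, chemokine and oxidase genes Col5a2 (-1.23), Laptm5 (-0.59), Trem2 (-1.15), Gpnmb (-1.57), Ccl6 (-0.77), Ccl9 (-0.89), Ccl8 (-1.55), Ncf1 (-0.64) and Nox4 (-1.52). Elane (-0.75) was lower as well. Early response genes were lower, with Maff at -0.75, Fosl2 at -1.27, Egr2 at -1.70, and so were Hsp90aa1 (-0.59) and Errfi1 (-1.04). Vessel genes were lower, with Tek at -0.75, Kdr at -0.75, Rgs5 at -0.54 and Kcnj8 at -0.84.

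Higher on JJ101 were the heart genes Nkx2-5 (0.96) and Mybpc3 (0.56), the strain genes Des (1.21), Hspb1 (0.72) and Gadd45b (0.59), the glucocorticoid-induced Fkbp5 (0.99) and Mt2 (1.27), the clock genes Dbp (1.21), Hlf (0.51) and Ciart (1.57), and the glycolytic Hk1 (0.94) and Gpi1 (0.67). Fast fibre genes parted, with Mybpc2 at 0.84, Tnnc2 at -4.06 and Tnnt3 at -3.76. Myh4 and Pax7 were not well above background on the JJ101 arrays and were at least 46.3-fold and 1.1-fold lower there. The genes chosen for this difference were Chac1 (2.07), Kcnj4 (1.64), Gdap10 (-1.67), Klra9 (-1.43) and Zfp273 (-1.40). The part of slide row, which cannot be told apart from the water, was not tested.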

How the results depend on the processing

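The 1686 genes past the threshold became 1 with both MDX groups as 1 genotype, 5 with the slide row as a block, 604 with a replicate block, 4637 with median centring, 9075 with no filter and 3076 with a trended robust prior; without both MDX_JJ101 arrays 125 passed and without both MDX_tap arrays 5766. Leaving out each array in turn gave 0 to 1963. The 5874 genes with arrays apart became 8531 with median centring, 11780 with no filter, 12804 without both MDX_JJ101 arrays and 15704 without both MDX_tap arrays, where fewer arrays had to separate. Of the calls, 27.9% were upwards, 83.3% with median centring, 7.0% with spike-in scaling, 76.8% with no filter, 45.0% with detection on all arrays and 45.5% with the trended prior. Replicate numbers did not pair the arrays (correlations of deviations -0.031, -0.064 and 0.163); the replicate block kept 568 of the reported calls. Signs turned for uncalled genes only: Ndufa1 (0.067, median centring), Utrn (0.16, median centring, and 0.089) and Nkx2-5 (-0.22); Utrn at 0.089 and Nkx2-5 turned with the slide row block and without both MDX_JJ101 arrays; the cause was not tested. Of 70 named calls 70 were lost with both MDX groups as 1 genotype, 69 with the slide row block, 36 with the replicate block, 4 with normexp, 4 with the authors' table, 7 with the column as a random block, 10 with median centring and 24 with spike-in scaling. Signal over background limited JJ101 most, where the lowest level well above background was -3.33 and -3.29 against -4.23 and -4.13 in B10_tap. The list counts without arrays were chosen after seeing the data.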
